A study of Monodelphis domestica with 18 samples.

Results

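The 6 libraries numbered replicate 1 in a time course of opossum kidney (OK) cells were compared with the 12 libraries numbered replicate 2 or 3, out of 18 in all. The members were taken by their replicate number in the sample labels, and the split was chosen from the known distances between the expression profiles of these libraries, so the difference itself is described without a test. Each replicate number occurs once in each of 6 conditions: wild type OK cells kept for 12, 48 and 96 h on a shaker at 146 rpm, called orbital shear stress (OSS), and static cultures at 0, 48 and 96 h. All cells grew on permeable supports in DMEM/F12 medium with serum, and no drug, transgene or knockdown separates the groups. Each sample held the pooled RNA of 3 experiments. The labels do not say what a shared replicate number stands for, so a culture date, a passage, an operator and a library batch cannot be told apart here, and p-values measure the spread between these samples.

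OK cells are an established epithelial line with proximal tubule features from the American opossum, and their reads were aligned to the genome of another species, the gray short-tailed opossum. The proximal tubule reabsorbs filtered salt, glucose, phosphate and protein, the last through the receptors megalin (LRP2) and cubilin (CUBN). Renal tubule cells are also known to make secreted defence proteins such as lipocalin 2 and complement C3 when they are injured or stimulated. Between runs of a cultured line, density, time since plating, stimulation and library preparation can all differ. None of these was recorded in the labels.

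Total counts were lowest in replicate 1 in all 6 conditions, at 40154553 to 53240329 per library, against 58575822 to 79745362 in replicates 2 and 3. Replicate 1 also had the fewest genes with a count in all 6 conditions, 16786 to 17454 against 17536 to 18238. Genes shorter than 1 kb took 12.3 to 14.2% of the counts in replicate 1 and 12.2 to 13.9% in replicates 2 and 3, with replicate 1 highest in 5 of 6 conditions. Levels are given as CPM, the counts of a gene scaled to a fixed library total, with TMM factors that align the bulk of genes between libraries. Above 1 CPM in 6 or more libraries lay 12840 of the 23899 genes, and only these were used.

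Once the mean of its condition was taken from each library, the replicate number was the main axis left. The first principal component of these deviations held 52.99% of them and placed all 6 replicate 1 libraries between 17.6 and 32.2 and the other 12 between -19.5 and -5.6. The farthest library was replicate 1 of Static 48h, at 32.2. Deviations of replicate 1 libraries from different conditions correlated across genes with r of 0.47 to 0.79 (median 0.62, 15 pairs). The same was seen within replicate 2 (median 0.46) and within replicate 3 (median 0.46), and for pairs of a replicate 2 with a replicate 3 library the median was 0.18 over 30 pairs. Deviations add to 0 within a condition, so an outlying replicate 1 also pulls replicates 2 and 3 together. Genes are not independent replicates, and these r values are a description.

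**Figure D1:**
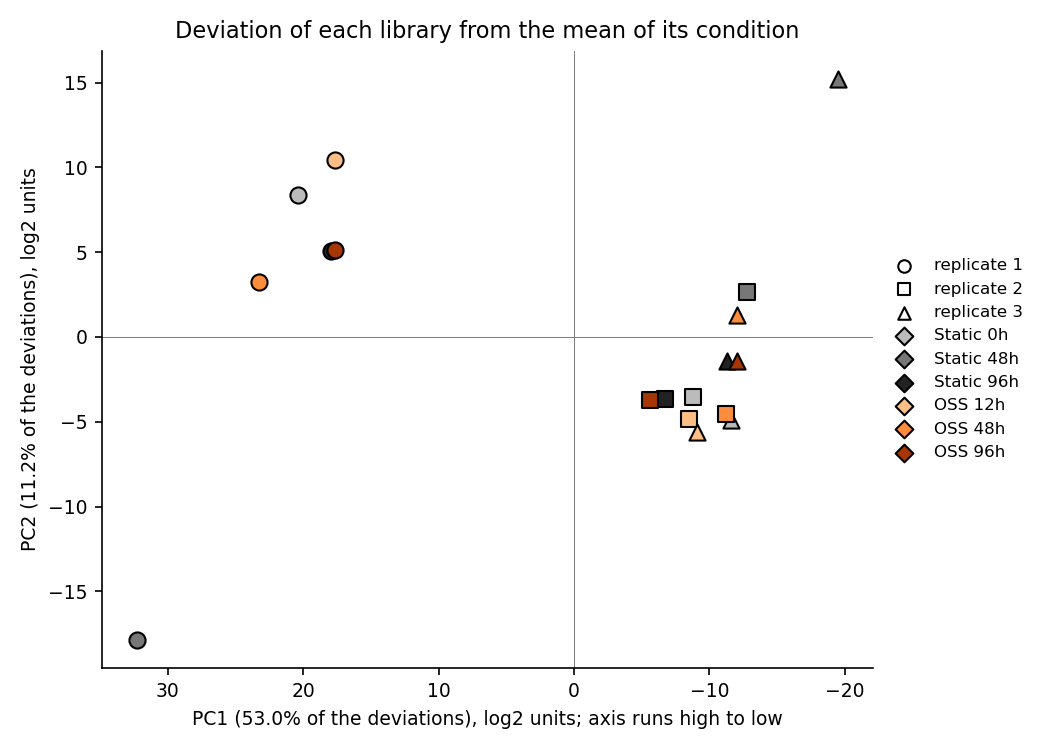
Each point is a library, placed by the first and second principal component of its deviation from the mean of its own condition, in log2(CPM + 1) units over 12840 genes. Shape gives the replicate and fill the condition. All 6 replicate 1 libraries lie above 17 on the first component and all 12 others below -5.

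For most genes the condition outweighed the replicate. Split into sums of squares on the log2(CPM + 1) scale, the median gene owed 74.9% of its variation to condition, 4.51% to replicate 1 against replicates 2 and 3, and 1.35% to replicate 2 against replicate 3. In 1011 genes, 7.87% of those used, the replicate 1 share was larger than the condition share. The common biological coefficient of variation was 12.3% with a replicate 1 term in the model and 17.6% without it.

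A gene was counted as higher or lower throughout where its level in replicate 1 lay above or below both partners of the same condition in all 6 conditions. By this measure 1013 genes (7.89%) were lower and 947 (7.38%) higher in replicate 1. Genes that were also at least 2-fold apart in the fitted log2 difference numbered 275 lower (2.14%) and 50 higher (0.389%). These shares, and the counts of gene lists below, come from the contrast that defined the split and are a description only. The filter on low values bears on them unequally, since 126 of the 275 never exceeded 1 CPM in a replicate 1 library and 2 of the 50 never exceeded it in replicates 2 and 3. At the 2-fold limit, ZNF865 (1.01) and RANBP3L (-1.004) lay just inside, and CA12 (0.98) and SPIC (-0.997) just outside.

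The 275 genes that were lower throughout by 2-fold or more fell into 2 kinds. Of them 126 (45.8%) carried only an Ensembl identifier and no name, against 945 of all 12840 (7.36%). Their medians of length and of mean log2 CPM were 639 bases and 0.58, against 2512 bases and 4.55 over all genes. No more than 1 CPM was reached in any replicate 1 library by 102 of the 126, so these passed the filter on low values only through replicates 2 and 3. Identifier numbers of 117 of the 126 lay from 27000 up to but not including 30000, a range that held 292 of the 945 unnamed genes used. In replicate 1 their summed level was 98.9, 115 and 137 CPM in Static 0h, 48h and 96h and 88.4, 98.0 and 209 CPM in OSS 12h, 48h and 96h. The corresponding sums were 513, 654, 526, 438, 418 and 430.1 CPM in replicate 2 and 648, 583, 559, 430.3, 393 and 482 CPM in replicate 3. Lower sums in replicate 1 follow from how these genes were chosen. In replicates 2 and 3 the sums were lower under OSS than in static culture of the same time. The replicate 1 library of OSS 96h held the highest sum of that replicate. Over the 945 unnamed genes, 184 were lower (19.5%) and 63 higher (6.67%) throughout, against 7.89% and 7.38% over all genes. Of the 184, 105 never exceeded 1 CPM in a replicate 1 library and passed the filter only through replicates 2 and 3. The lower share of unnamed genes thus depends in part on the filter.

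The other 149 genes had names and a median length of 2532 bases, near the 2512 bases over all genes. Entries named by an Rfam number, the identifier of an RNA family, made up 14 of them (9.40%), against 1.12% of all genes. The median of mean log2 CPM over the 149 genes was 2.54, against 4.55 over all genes. Their median level in replicate 1 was 1.11, 1.86 and 4.51 CPM in Static 0h, 48h and 96h and 1.10, 1.45 and 2.43 CPM in OSS 12h, 48h and 96h. It was 2.84, 7.80, 11.02, 2.59, 4.82 and 6.37 CPM in replicate 2 and 3.34, 10.5, 13.6, 3.01, 4.49 and 7.87 CPM in replicate 3. This set thus climbed with time in culture in all 3 replicates, from a lower level in replicate 1. Of these 149, 24 never exceeded 1 CPM in a replicate 1 library and 63 exceeded it in all 6.

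**Figure D2:**
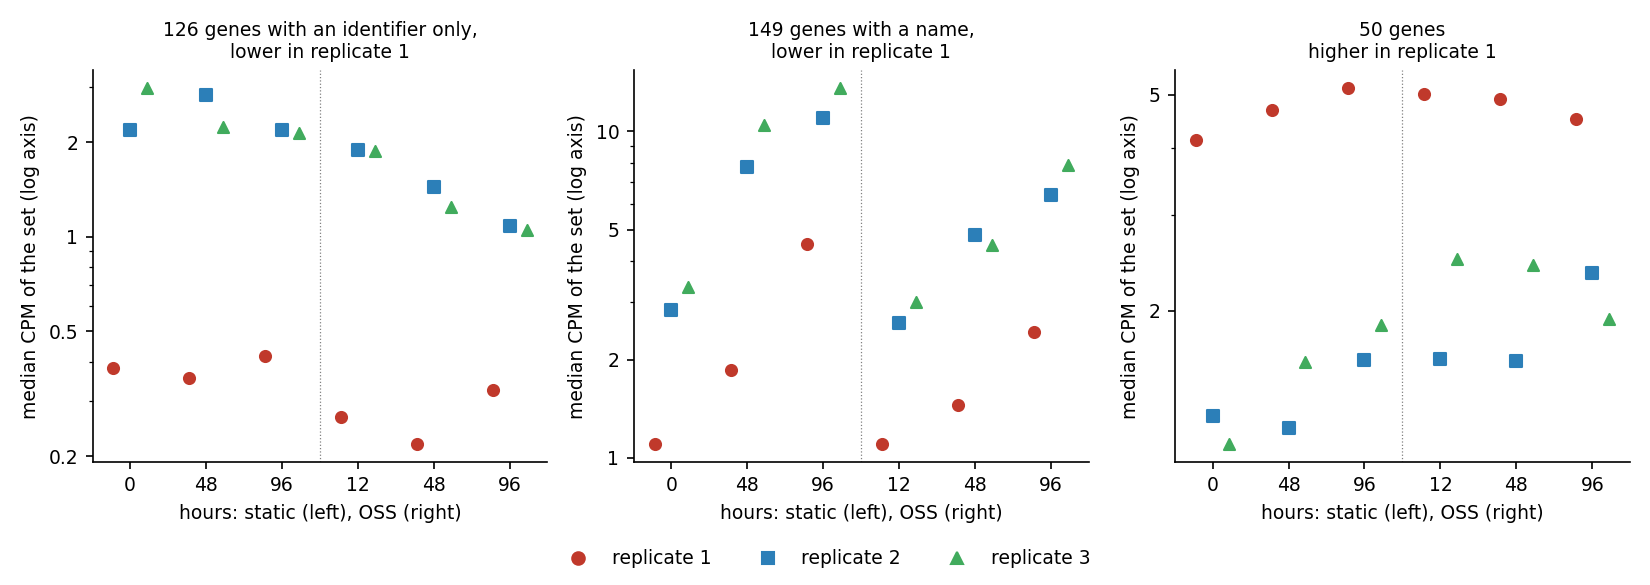
Median CPM (log axis) of 3 gene sets in each library, by hours of static culture (left) and OSS (right), with replicate 1 left of replicates 2 and 3. In replicate 1 the unnamed set lies at 0.219 to 0.418 CPM in all 6 conditions, and the named lower set climbs to 4.51 CPM at Static 96h, against 11.02 and 13.6 CPM in replicates 2 and 3.

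The 12 named genes with the largest downward differences included secreted enzymes and binding proteins, membrane proteins and an intracellular enzyme. LPO (lactoperoxidase, which makes antimicrobial oxidants) had a log2 difference of -5.66 (SE 0.42). CHI3L2 (a chitinase-like protein) followed at -4.85, LAO1 (an L-amino acid oxidase, named from the mouse column) at -4.58 and LCN2 (lipocalin 2, which binds bacterial siderophores) at -4.17. PIGR (the receptor that carries polymeric IgA across epithelia) stood at -3.54, HPX (hemopexin, a heme carrier) at -3.40 and C3 (the central complement component) at -3.11. The rest of the 12 were TM4SF5 (-2.72), NOS2 (inducible nitric oxide synthase, -2.64), NTNG2 (-2.64), ADAM28 (-2.53) and TNFSF15 (a TNF family cytokine, -2.52). In bulk RNA, fewer cells that express a gene and less RNA per cell cannot be told apart.

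LCN2 was measured at 0.0725, 0.229 and 2.49 CPM in replicate 1 of Static 0h, 48h and 96h and at 0.0950, 1.53 and 13.9 CPM in replicate 1 of OSS 12h, 48h and 96h. In the same order it had 1.65, 25.4, 23.3, 2.96, 28.2 and 108 CPM in replicate 2 and 2.99, 33.3, 59.7, 4.38, 24.2 and 158 CPM in replicate 3. Replicate 1 lay below both partners in every condition, as the choice of the gene required, and by a wide margin. The replicate 1 level still climbed with time under both regimes.

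PIGR was at 0.652, 1.88 and 56.1 CPM in replicate 1 of Static 0h, 48h and 96h and at 0.285, 6.44 and 172 CPM in replicate 1 of OSS 12h, 48h and 96h. Replicate 2 had 1.89, 111, 233, 3.92, 156 and 743 CPM, and replicate 3 had 9.46, 202, 466, 9.36, 153 and 860.1 CPM. The replicate 1 level after 96 h of OSS was close to that of replicates 2 and 3 after 48 h (172 CPM, against 156 and 153 CPM).

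LTF (lactoferrin, an iron-binding antimicrobial protein, named after its values were seen) was at 246, 503, 3237, 281, 1030 and 7757 CPM in replicate 1 in the order of conditions above. It was at 1025, 4806, 7596, 1144, 6371 and 15015 CPM in replicate 2 and at 1179, 8826, 14506, 1436, 7146 and 20744 CPM in replicate 3. Again the replicate 1 library at OSS 96h stood nearer to the others at OSS 48h (7757 CPM, against 6371 and 7146 CPM) than to those of its own time. The 19 mucosal defence genes described below varied in this: replicate 1 at OSS 96h lay above both partners at OSS 48h in 5 of them and below both in 8, and replicate 1 at Static 96h lay above both partners at Static 48h in 3 and below both in 11.

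The defence genes did not share 1 dependence on shear. HPX reached its highest level under OSS, at 61.5 CPM in replicate 1 of OSS 96h, against 376 and 346 CPM in replicates 2 and 3. In Static 96h it was at 8.95 CPM in replicate 1, against 28.2 and 40.98 CPM. NOS2 was mainly a gene of static cultures, at 11.7 CPM in replicate 1 of Static 96h, against 38.1 and 54.6 CPM in replicates 2 and 3, and at 1.28 CPM in replicate 1 of OSS 96h, against 2.14 and 4.06 CPM. ADAM28 (a membrane metalloprotease) was also a static gene, at 57.0 CPM in replicate 1 of Static 96h, against 141 and 238 CPM, and at 6.03 CPM in replicate 1 of OSS 96h, against 16.0 and 25.1 CPM. Replicate 1 was the lowest of 3 in each of these cases, which follows from how these genes were chosen.

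LPO was at or below 0.0397 CPM in 4 of 6 replicate 1 libraries and at 0.726 and 1.90 CPM in replicate 1 of Static 96h and OSS 96h. The same 2 conditions had 17.9 and 63.5 CPM in replicate 2 and 55.6 and 70.0 CPM in replicate 3. LAO1 was at 0.0362, 0.688, 6.91, 0, 0.954 and 27.2 CPM in replicate 1, against 0.605, 23.5, 84.3, 1.26, 31.6 and 122 CPM in replicate 2 and 1.56, 71.3, 239.9, 4.89, 86.1 and 390.2 CPM in replicate 3. For LAO1 the 3 replicates stood in the same order in every condition, with replicate 1 lowest, as its choice required, and replicate 3 highest.

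C3 did not follow LTF and PIGR. It was at 3.79, 11.7, 41.01, 2.94, 7.97 and 48.8 CPM in replicate 1, against 19.1, 124, 164, 22.9, 112 and 246 CPM in replicate 2 and 27.3, 193, 268, 35.8, 149.7 and 439 CPM in replicate 3. Its replicate 1 level at OSS 96h lay below both partners at OSS 48h. NTNG2 (netrin G2, a membrane-anchored axon guidance protein) showed no climb with time in any replicate. It was at 0.298 to 0.605 CPM in replicate 1, against 1.60 to 4.45 CPM in replicate 2 and 1.27 to 4.94 CPM in replicate 3.

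**Figure D3:**
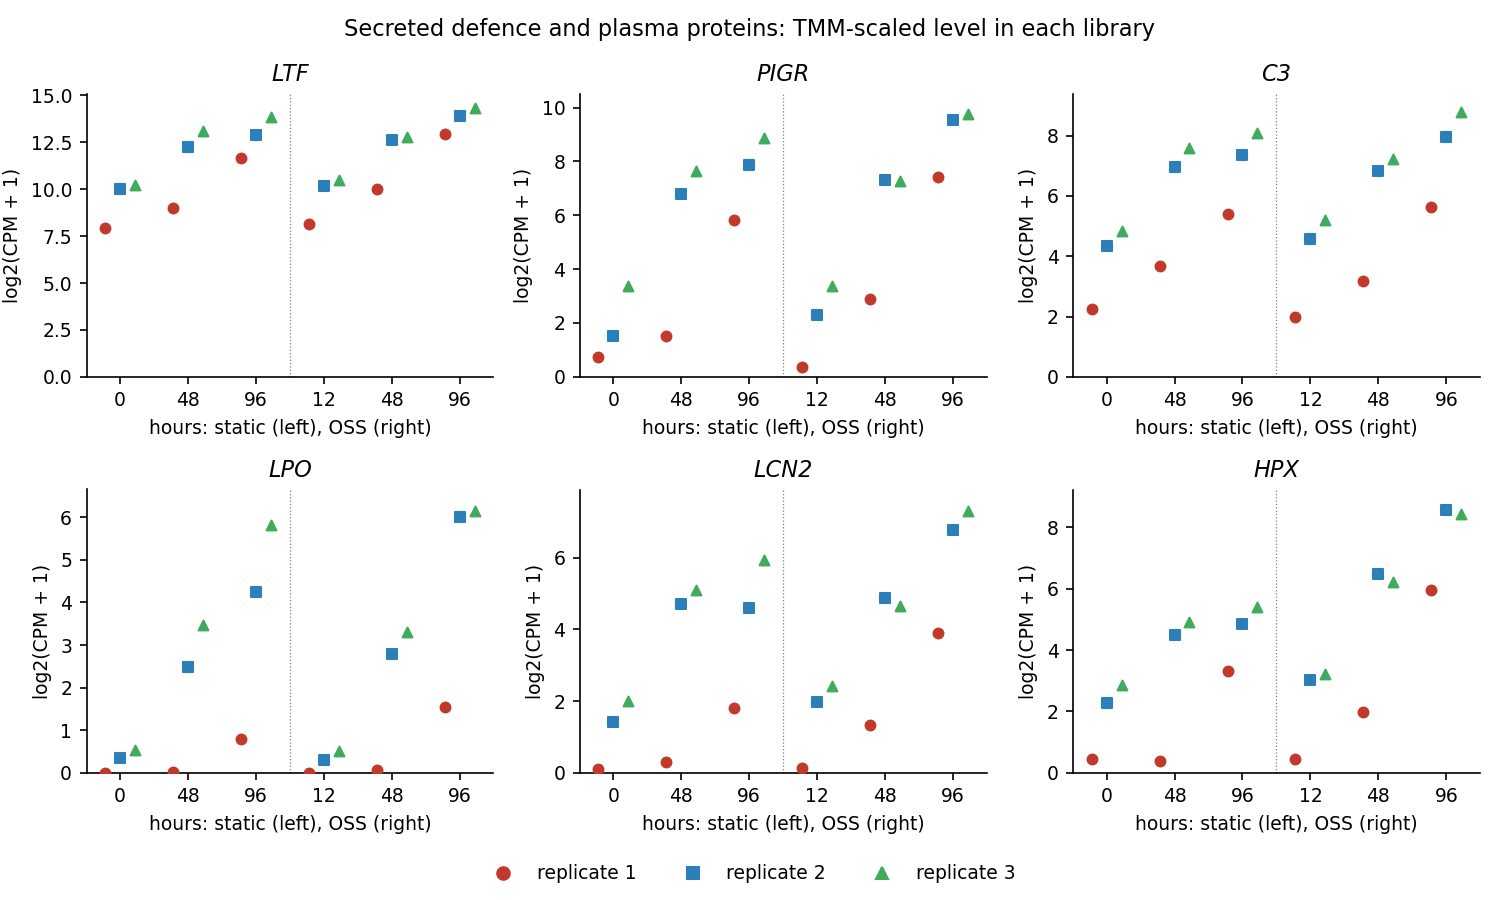
Level of 6 genes in each library as log2(CPM + 1), by hours of static culture (left of the dotted line) and OSS (right of it). Red circles are replicate 1, blue squares replicate 2 and green triangles replicate 3. The 6 genes were taken from those lower throughout, so replicate 1 is below both partners in every condition. All 6 are higher at 96 h than at the first time in each replicate.

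Members of gene lists were then counted in the same way. Of 25 measured mucosal and plasma protein genes, 9 were lower throughout and 0 higher, with a median log2 difference of -0.62. Over all genes 7.89% were lower and 7.38% higher, and the median was 0.00380. The 9 were LPO, LAO1, PIGR, HPX, LTF, REG3G (-1.44), RBP4 (-1.28), AMBP (-1.02) and CP (-0.86). A narrower list of mucosal defence genes, drawn up after values were seen, had 16 of 19 lower throughout with a median of -2.28, and is no independent evidence. Its other lower members included EHF (an epithelial transcription factor, -2.47), REG4 (-2.21), VNN1 (-1.98), PTX3 (-1.95) and CHI3L1 (-1.80). CHI3L1 and CHI3L2, and VNN1 and VNN3, are close copies between which reads may be split.

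Complement and antigen presentation genes were counted on lists also drawn up after values were seen, beside the same shares over all genes of 7.89% lower and 7.38% higher. Among 11 complement genes 6 were lower throughout and 1 higher, CD46 (0.22), with a median of -1.05. C9 (the pore-forming terminal component, -2.49) was at 8.13 to 93.7 CPM in replicate 1, against 66.0 to 559 CPM in replicate 2 and 39.9 to 345 CPM in replicate 3. C8A (-2.001), C1S (-1.55), C1R (-1.43) and C4B (-1.05) were the other lower ones. Among 10 antigen presentation genes 6 were lower throughout and 0 higher, with a median of -0.57. NLRC5 (the activator of MHC class I genes, -1.72), HLA-B (-1.33), TAP1 (a peptide transporter, -0.996), PSMB9 (-0.86), PSMB8 (-0.57) and B2M (-0.57) made up this group. The name HLA-B is held by 4 identifiers, of which 2 were lower throughout, and reads may be split among them.

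Wider stimulus programmes were counted too, beside 7.89% lower and 7.38% higher over all genes. Of 19 inflammation and NF-kB targets 3 were lower throughout (LCN2, C3 and CSF1, -0.56) and 0 higher, with a median of -0.40. Of 19 interferon-stimulated genes 4 were lower, all 4 of them the antigen presentation genes TAP1, PSMB8, PSMB9 and B2M, and 2 higher (DTX3L, 0.35, and IFIH1, 0.22). Immediate early genes had 2 of 24 lower (IER3, -0.98, and KLF6, -0.32) and 0 higher. This lower share, 8.33%, was close to that over all genes. Extracellular matrix genes also had a lower share of 8.33%, 3 of 36: POSTN (periostin, -2.25), TGFBI (-1.17) and AGRN (-0.45). POSTN was mainly a gene of static cultures, at 33.2, 94.2 and 744 CPM in replicate 1 of Static 0h, 48h and 96h, against 73.9, 691 and 1334 CPM in replicate 2 and 159.7, 1013 and 2043 CPM in replicate 3. Of 23 fatty acid oxidation genes 3 were higher throughout, HADHA, ECHS1 and HADH, by 0.15 to 0.19.

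The genes higher in replicate 1 were of other kinds, and many were short. The median length of the 50 that were higher throughout by 2-fold or more was 777.5 bases, and 29 of them were under 1 kb. Of these 50, 47 exceeded 1 CPM in all 6 replicate 1 libraries, and 2 did not exceed it in any library of replicates 2 and 3. The 12 named genes with the largest differences were AP000721.1 (2.63), DBP (a clock-controlled transcription factor, 2.13), FAM43A (2.04), RF00015 (a gene of the U4 spliceosomal RNA family, 1.97), TMEM223 (1.84), DDTL (1.77), RF00598 (1.76), TBCC (tubulin folding cofactor C, 1.59), RNASEH2C (a subunit of ribonuclease H2, 1.48), RF00377 (1.42), RRS1 (a ribosome assembly factor, 1.41) and PAQR9 (1.39). Of 144 entries named by an Rfam number, the identifier of an RNA family, 19 were higher and 28 lower throughout. Over all genes 7.38% were higher and 7.89% lower.

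DBP was at 4.53, 9.13 and 8.93 CPM in replicate 1 of Static 0h, 48h and 96h and at 3.12, 10.9 and 7.48 CPM in replicate 1 of OSS 12h, 48h and 96h. Replicate 2 had 1.07, 1.43, 2.78, 0.483, 1.07 and 2.35 CPM, and replicate 3 had 0.717, 1.82, 3.19, 1.33, 2.28 and 1.93 CPM. The ranges of replicate 1 and of the partners overlapped only across conditions, never within 1, which follows from how DBP was chosen. Of 18 measured clock genes, 1 was higher throughout (DBP) and 1 lower (CIART, -0.32). These shares, 5.56% each, lay below the 7.38% higher and 7.89% lower over all genes.

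FAM43A was nearly flat within a replicate, at 3.83 to 7.04 CPM in replicate 1, against 0.852 to 1.80 CPM in replicate 2 and 0.809 to 1.94 CPM in replicate 3. Replicate 1 accounted for 90.1% of its variation and condition for 3.36%. RPS28 (a small ribosomal subunit protein) was likewise flat, with 219 to 299 CPM in replicate 1, against 108 to 136 CPM in replicate 2 and 93.2 to 142 CPM in replicate 3, and a log2 difference of 1.01 (SE 0.06).

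RF00015 was at 215 to 282 CPM in replicate 1, but scattered from 20.4 to 176 CPM in replicate 2 and from 14.3 to 134 CPM in replicate 3. DDTL (1.77) and MIF (a cytokine-like tautomerase, 1.05) are related genes that may share reads, and both were higher throughout. PAQR9 kept a clear dependence on condition, at 5.15 CPM in replicate 1 of Static 96h and 81.1 CPM in replicate 1 of OSS 48h, against 2.71 and 24.4 CPM in replicate 2 and 2.32 and 21.2 CPM in replicate 3.

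**Figure D4:**
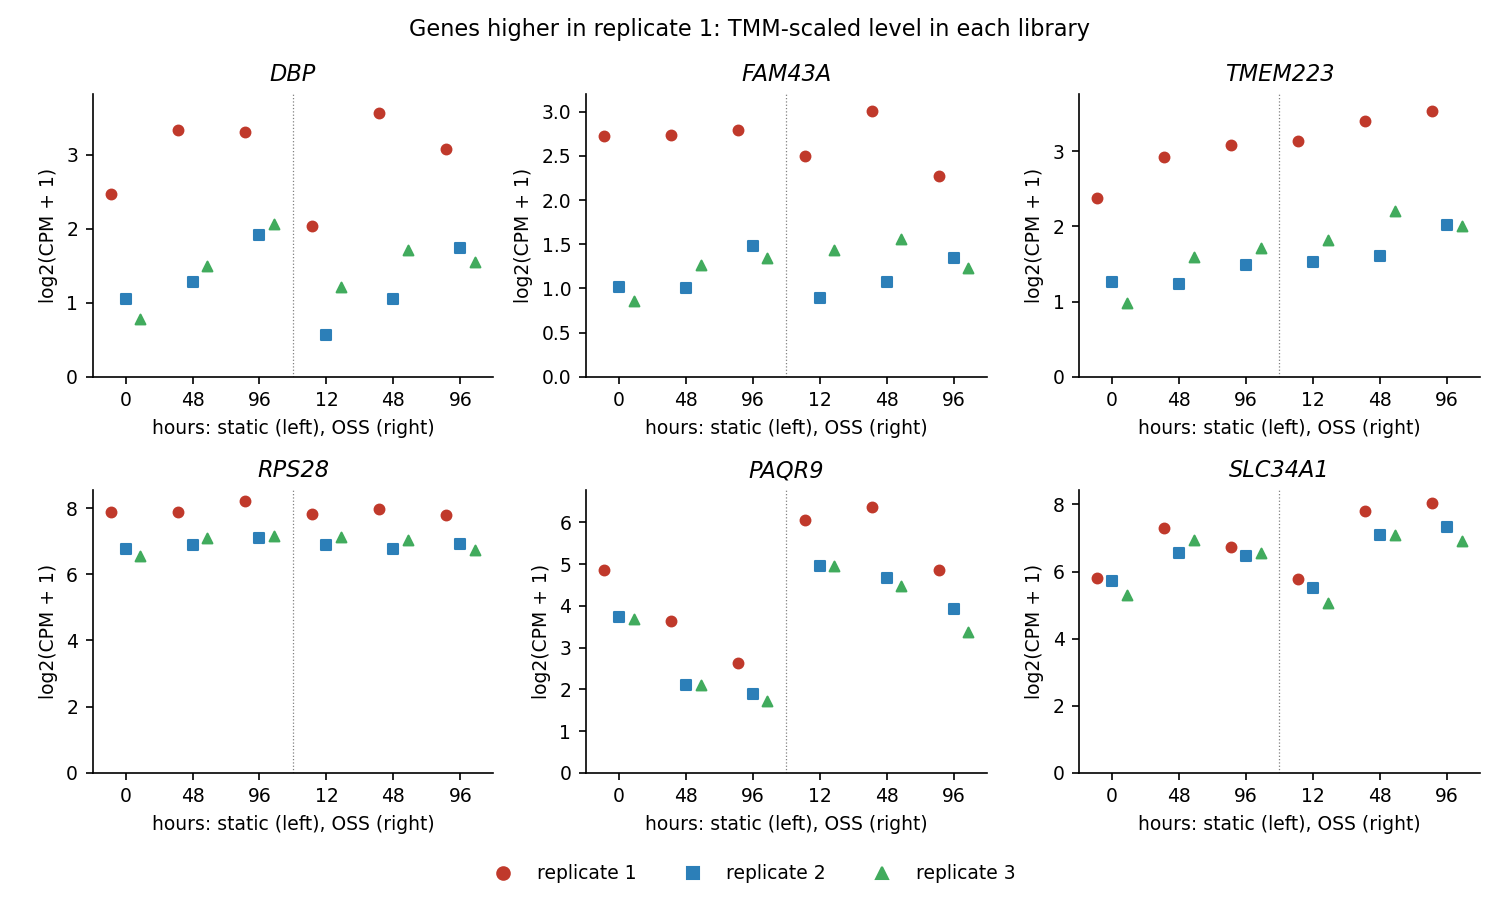
Level of 6 genes that were higher in replicate 1 in all 6 conditions, as log2(CPM + 1), by hours of static culture (left of the dotted line) and OSS (right of it). Replicate 1 (red circles) lies above replicates 2 and 3 in every condition. RPS28 is nearly flat over time, with replicate 1 at 219 to 299 CPM, while PAQR9 and SLC34A1 also depend on condition.

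Short genes were found more often in both directions. With the genes cut into 10 equal bins by length, 14.5% of the shortest bin (65 to 675 bases) were higher and 12.7% lower throughout, against 4.91% and 6.85% of the longest bin (6205 to 28056 bases). The median log2 difference was 0.05 in the shortest bin and 0.000925 in the longest. Across the 12840 genes the rank correlation of the difference with length was -0.06, and the points share the same libraries. With a correction for length the counts moved little, to 978 higher and 1052 lower throughout. The part of library preparation in these differences was not tested.

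Of 27 measured proximal tubule transport and endocytosis genes 6 were higher and 2 lower throughout, with a median of 0.06, beside 7.38% higher and 7.89% lower over all genes. SLC34A1 (the sodium-phosphate cotransporter NaPi-IIa, 0.54) was at 54.7, 158, 106, 54.4, 223 and 264 CPM in replicate 1, against 51.5, 93.8, 86.4, 44.8, 136 and 160.0 CPM in replicate 2 and 38.02, 122.5, 93.4, 32.1, 136 and 119.8 CPM in replicate 3. The groups were farthest apart at OSS 96h. SLC5A2 (the glucose cotransporter SGLT2, 0.78), SLC13A1 (a sulfate carrier, 1.20) and SLC9A3R1 (NHERF1, a brush border scaffold, 0.45) were also higher, whereas SLC34A3 (-0.80) and the carbonic anhydrase CA4 (-0.96) were lower.

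Of the endocytic receptors, LRP2 was at 3522 to 6899 CPM in replicate 1, against 2785 to 6685 CPM in replicate 2 and 3442 to 5628 CPM in replicate 3, with a log2 difference of 0.12 (SE 0.06), and 90.2% of its variation lay with condition. CUBN (0.29, SE 0.05) and the adaptor DAB2 (0.36, SE 0.08) were higher throughout. For AMN, which anchors cubilin in the membrane, the difference was -0.18 (SE 0.06). Tubule transcription factors had 5 of 19 higher (WT1 by 0.69, OSR1 by 0.65, MAF by 0.62, ESRRG by 0.49 and EMX2 by 0.39) and 1 lower (GATA3, -0.83). Brush border and tubule enzymes had 3 of 28 higher (GATM by 0.80, EZR by 0.36 and ENPEP by 0.31) and 1 lower (TREH, the enzyme that splits trehalose, -1.48). Both counts stand beside 7.38% higher and 7.89% lower over all genes.

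Lists of general cell functions were counted last, beside 7.38% higher and 7.89% lower over all genes. Ribosomal protein genes had 7 of 48 higher and 2 lower, with RPS28 followed by RPL15 (0.45) and RPS9 (0.39). Respiratory chain genes had 5 of 30 higher, led by NDUFV1 (0.64), and 1 lower (COX7A2, -0.45). Mitosis genes had 0 of 27 higher and 2 lower (CDK1, -0.22, and CDC20, -0.18), a lower share of 7.41%, near that over all genes. DNA replication genes had 1 of 25 each way, and hypoxia targets 1 of 27 higher (CA12, 0.98) and 0 lower. Of 19 YAP targets none was higher or lower throughout. Lists are described by these counts and medians alone, with no test of a list.

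**Figure D5:**
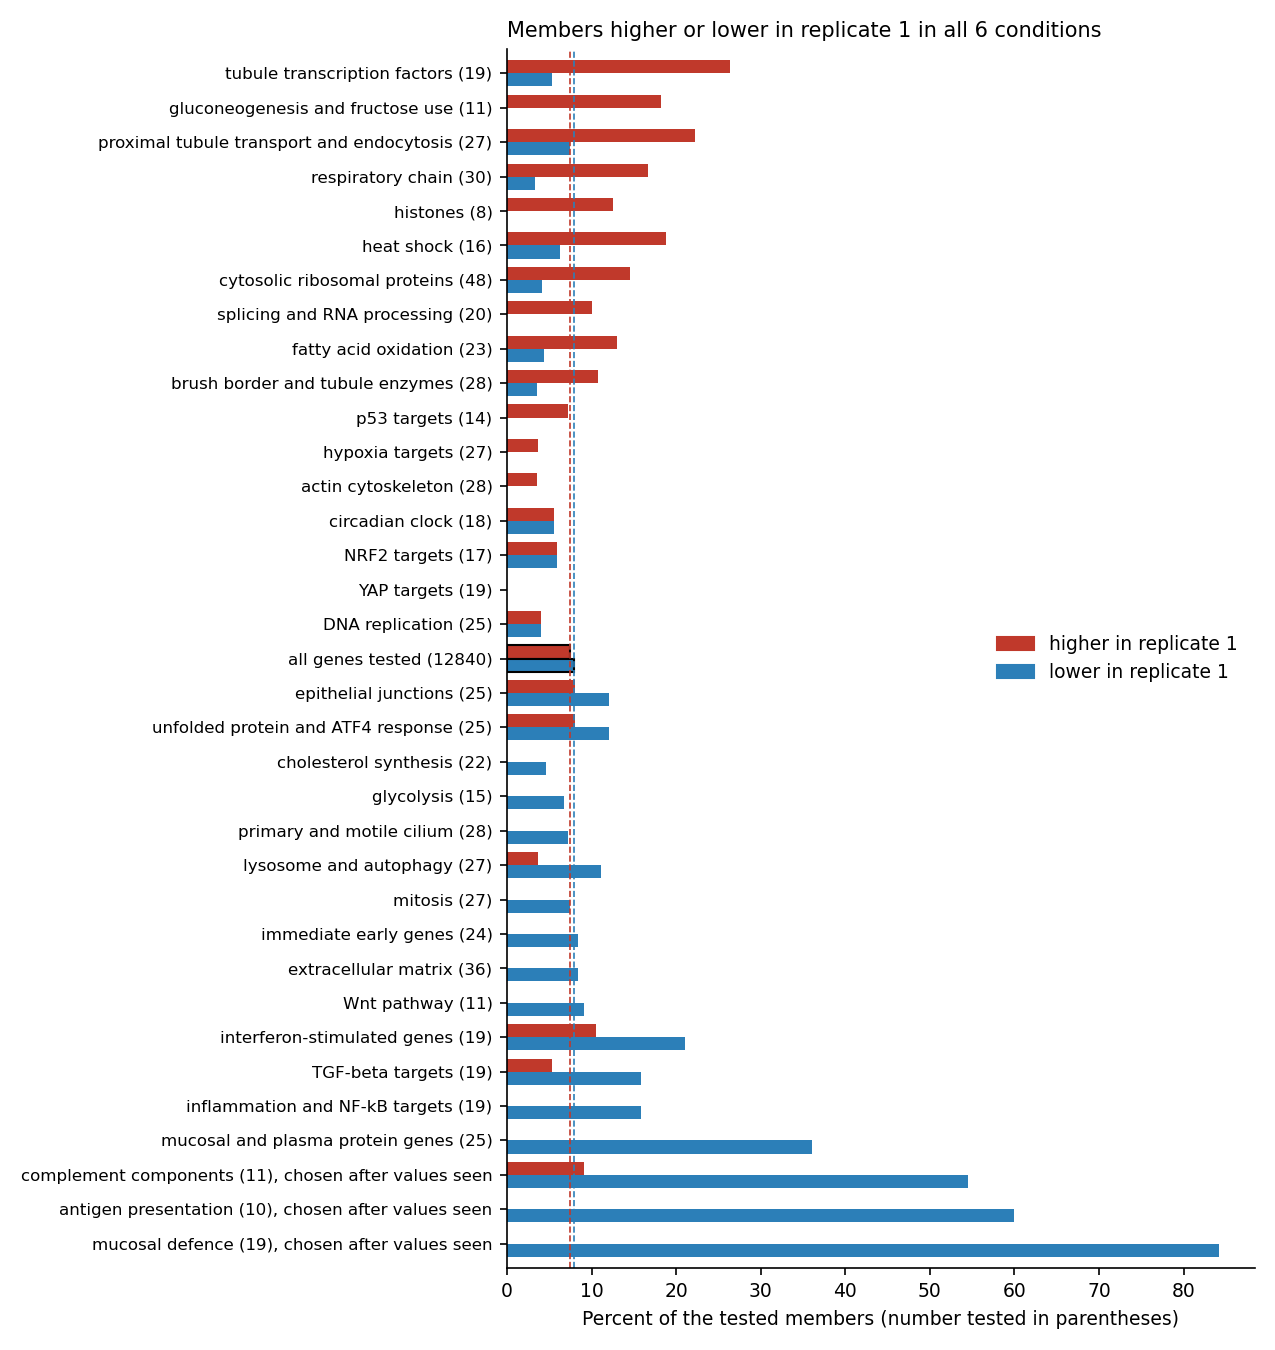
Percent of the measured members of each pathway list or later list with 8 or more of them (cell type marker lists are not drawn) that were higher (red) or lower (blue) in replicate 1 in all 6 conditions, with the number measured in parentheses. Dashed lines mark the shares over all 12840 genes, 7.38% higher and 7.89% lower. The 3 lists chosen after values were seen and the mucosal and plasma protein list hold the largest lower shares of those drawn.

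The cell type label was checked with markers. Of 14 proximal tubule markers 13 passed the filter on low values and SLC5A1 stayed under 1 CPM in every library. Their summed level was 7534 to 17114 CPM in replicate 1 and 6470 to 15801 CPM in replicates 2 and 3, with replicate 1 highest in 5 of 6 conditions. Markers of fibroblasts summed to 56.0 to 836 CPM in replicate 1 and 130.5 to 2143 CPM in replicates 2 and 3, lowest in replicate 1 in all 6 conditions. POSTN alone was at 12.3 to 744 CPM in replicate 1, against 66.7 to 2043 CPM in replicates 2 and 3. COL3A1, LUM and THY1 stayed under 1 CPM in every library. Of the 5 fibroblast markers that passed the filter, POSTN was lower throughout. The other 4 were neither: PDGFRA (-0.49), COL1A1 (-0.39), PDGFRB (-0.03) and COL1A2 (0.12). COL1A2 was at 53.9 CPM in replicate 1 of Static 48h, against 33.3 and 36.7 CPM in replicates 2 and 3. Leukocyte markers summed to 78.8 to 317 CPM in replicate 1 and 92.1 to 352 CPM in replicates 2 and 3, with replicate 1 lowest in 5 of 6 conditions. Most of that sum was CD14, a receptor for bacterial lipopolysaccharide, at 66.7 to 308 CPM in replicate 1 and 80.4 to 343 CPM in replicates 2 and 3. PTPRC, ITGAM, LYZ and TYROBP were under 1 CPM in every library. CD68 (0.20), CSF1R (-0.16) and CD3E (-0.33) passed the filter and were neither higher nor lower throughout. CD68 was at 4.23 to 10.1 CPM over the 18 libraries. Replicate 1 was also lowest in 5 of 6 conditions for markers of the collecting duct (12.8 to 39.2 CPM, against 18.02 to 52.8 CPM) and of the thick ascending limb and distal tubule (7.22 to 28.6 CPM, against 9.73 to 42.5 CPM). It was highest in 6 of 6 conditions for podocyte markers (114 to 232 CPM, against 95.5 to 166 CPM), in 5 for endothelial markers (7.61 to 48.2 CPM, against 7.73 to 40.1 CPM) and in 4 for muscle markers (58.4 to 84.7 CPM, against 47.2 to 85.5 CPM). The part of other cells in the lower defence genes was not tested.

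Replicates 3 and 2 were compared as well, to see which genes differ between the 2 replicate numbers outside replicate 1. With edgeR's quasi-likelihood test on these 12 libraries, 262 genes rose (2.04%) and 267 fell (2.08%) in replicate 3 relative to replicate 2 at an adjusted p under 0.05. Changes of 2-fold or more were few, 4 up and 13 down. Immediate early genes were the list with the most genes passing, 13 of 24 higher in replicate 3 and 0 lower. This count was 8 without any one library of OSS 12h, 48h or 96h and 15 with DESeq2. FOS (log2 0.62), EGR2 (1.08), DUSP5 (0.83), ATF3 (0.70), DUSP1 (0.61), JUN (0.55) and MYC (0.55) were among them, all genes that cells switch on soon after a stimulus. FOS was at 643, 944, 1059, 520.3, 574 and 761 CPM in replicate 3, against 485, 598, 711, 315, 410.3 and 415 CPM in replicate 2, in the order of conditions above. Replicate 3 was higher in all 6 conditions. Of the 25 mucosal and plasma protein genes 3 rose and 7 fell in replicate 3. Of the 19 mucosal defence genes 8 rose and 0 fell. That narrower list was drawn up after values of these libraries were seen, so its count is a description only.

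Among genes with a mean log2 CPM of at least 1 and a name held once, those that rose most in replicate 3 were LAO1 (1.59, SE 0.06, adjusted p = 9.23e-07 by edgeR), SOCS3 (a feedback inhibitor of cytokine signalling, 1.30), GADD45B (a stress response gene, 1.01), LOC100620004 (0.93), CHI3L2 (0.93) and TNFSF15 (0.89). SOCS3 was at 3.26 to 7.16 CPM in replicate 3, against 1.54 to 3.16 CPM in replicate 2, and the groups did not overlap. Those that fell most were TENM3 (a teneurin adhesion protein, -1.70), FGA (fibrinogen alpha chain, -1.38), RAPGEF4 (-1.22), APOA4 (-1.19), GATM (the first enzyme of creatine synthesis, -1.05) and C8A (-1.02). GATM was at 137, 266, 67.7, 83.8, 179.6 and 48.3 CPM in replicate 3, against 326, 509.8, 147, 197, 236 and 126 CPM in replicate 2. Replicate 3 was lower in every condition. TENM3 was at 1.26 to 2.93 CPM in replicate 3, against 3.88 to 9.31 CPM in replicate 2. Replicate 1 resembled replicate 3 for this gene, at 0.875 to 2.63 CPM, whereas for SOCS3 it was nearer to replicate 2, at 1.11 to 2.99 CPM.

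Both comparisons use the libraries of replicates 2 and 3, so their values stand side by side and are not counted against each other. For LAO1 the log2 difference was -4.58 in replicate 1 against both others and 1.59 in replicate 3 against replicate 2. LPO had -5.66 and 0.86 (adjusted p = 0.0299 by edgeR), C3 had -3.11 and 0.63 (adjusted p = 0.000469 by edgeR), LCN2 had -4.17 and 0.56 (adjusted p = 0.0812 by edgeR), and POSTN had -2.25 and 0.87 (adjusted p = 0.000539 by edgeR). GATM had 0.80 and -1.05, and WT1 0.69 and -0.37 (adjusted p = 0.00225 by edgeR). NTNG2 (-2.64 and -0.18), FAM43A (2.04 and 0.26) and RPS28 (1.01 and 0.07) did not pass the test between replicates 3 and 2. Brush border and tubule enzymes had 6 of 28 lower in replicate 3, DDC, DPEP1, MEP1A, CPO, ENPEP and GATM, and 0 higher. Over all genes 2.08% were lower and 2.04% higher.

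The count of genes that differ between replicates 3 and 2 depended on single libraries. It lay between 96 and 303 higher and between 78 and 215 lower when a library was left out, being lowest without a library of OSS 48h. With all 18 libraries in the model, 86 genes rose and 204 fell. DESeq2 gave 480 and 515. FGA did not pass with DESeq2 (adjusted p = 0.162).

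The replicate 1 difference was then compared between shear and static culture at 48 and 96 h. Only 4 of 12840 genes (0.0312%) passed an adjusted p under 0.05 with edgeR's quasi-likelihood test. With a replicate 3 term in the model, which keeps all 3 replicate numbers apart, 64 passed. DESeq2 called 196, and 1330 genes had an unadjusted p under 0.05. FOSB (an immediate early transcription factor) was at 5.59 and 7.33 CPM in replicate 1 of Static 48h and 96h, against 2.53 and 4.21 CPM in replicate 2 and 3.04 and 4.74 CPM in replicate 3. Under OSS at 48 and 96 h it was at 0.795 and 1.28 CPM in replicate 1, against 2.72 and 4.48 CPM in replicate 2 and 2.81 and 6.35 CPM in replicate 3. Replicate 1 was thus above its partners in static culture and below them under OSS, a log2 difference between the 2 regimes of -2.80 (SE 0.31, adjusted p = 0.0153 by edgeR).

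L1CAM (a neural adhesion molecule, -1.27, adjusted p = 0.0382 by edgeR) was at 40.7 CPM in replicate 1 of Static 48h, against 15.4 and 15.6 CPM in replicates 2 and 3, and at 4.49 CPM in replicate 1 of OSS 48h, against 5.11 and 5.48 CPM. The unnamed genes ENSMODG00000027663 (1.45) and ENSMODG00000027866 (3.51) were the other 2. ENSMODG00000027663 was at 12.3 to 21.4 CPM in 5 replicate 1 libraries and at 58.5 CPM in replicate 1 of OSS 96h, against 60.6 to 99.0 CPM in replicates 2 and 3. Without replicate 1 of OSS 96h its value was 0.50 and 0 genes passed, and without replicate 1 of Static 96h 632 genes passed.

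For no gene (0%) did the replicate 1 difference at 48 and 96 h pass the test against that at 0 h static and 12 h OSS with edgeR. At an unadjusted p under 0.05 there were 1281 genes, and DESeq2 called 46. With a replicate 3 term 0 passed. The median difference over the 275 lower genes, on the log2(CPM + 1) scale, was -1.10, -1.35 and -0.98 in Static 0h, 48h and 96h and -0.96, -0.97 and -0.76 in OSS 12h, 48h and 96h. Over the 50 higher genes it was 1.19, 0.97, 0.92, 0.84, 0.95 and 0.94 in the same order.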

How the data were processed

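RNA was measured in 18 libraries, 3 per condition, made from rRNA-depleted total RNA with a stranded kit. Reads were trimmed (cutadapt), aligned to MonDom5 (TopHat2) and assigned to genes (featureCounts of Subread) by the authors, who deposited raw counts and a gene length for 23899 Ensembl genes. Tool versions, annotation release and strand setting are not given in the sources used here, so overlapping genes may share reads. Spreadsheet averages and tests in smaller sheets were not used, and 0 columns of per-sample values were left unmapped.

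The filter of the study (above 1 CPM in 6 libraries or more) was applied, and the genes left were fitted in R 4.3.3 with edgeR 4.0.16 (limma 3.58.1): TMM factors, Cox-Reid dispersions, because the qCML estimate of the study takes no covariate, and the older form of the quasi-likelihood F-test with Benjamini-Hochberg adjustment over 12840 genes. Condition was a covariate throughout. Standard errors are the log2 value over the square root of F. The replicate 1 difference received no p. Replicate 3 against 2 was fitted on 12 libraries, and shear against static and late against early differences on a model with a replicate 1 effect per condition. The scripts were tested on simulated data. No 2 libraries of a condition were duplicates (mean chi-square per gene at least 25.1 in each of the 18 pairs). DESeq2 1.42.0, Python 3.11.15 and matplotlib 3.10.9 served for alternatives and figures.

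The split, the 31 pathway lists, the 7 marker lists and the rule for naming genes were chosen with earlier results of these data known. The rule names the 12 largest differences each way with a single-copy symbol and a mean log2 CPM of at least 1, up to 4 members of each list, the 6 largest tested changes each way, 4 endocytic receptors and the genes at the 2-fold limit. LTF, REG3G, REG4, EHF, WFDC2, FOS and other list members beyond it, and the complement, antigen presentation and mucosal defence lists, were chosen after values were seen. For a symbol held by several identifiers, lists took the most abundant. Sequences and coordinates are not analysed here. A result on 1 gene is not reported here.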

Additional observations from a re-analysis of the deposited data

Results flagged for a closer look

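For 4 genes the replicate 1 difference was not the same under OSS as in static culture, by a test of that difference itself at 48 and 96 h (edgeR's quasi-likelihood test, adjusted over 12840 genes). FOSB gave -2.80 on the log2 scale (SE 0.31, adjusted p = 0.0153), with replicate 1 above both partners in 2 of 2 static conditions and below both in 2 of 2 OSS conditions. L1CAM gave -1.27 (SE 0.16, adjusted p = 0.0382). The unnamed genes ENSMODG00000027663 and ENSMODG00000027866 gave 1.45 (SE 0.11, adjusted p = 0.000889) and 3.51 (SE 0.39, adjusted p = 0.0153). What sets these differences was not tested. The value of ENSMODG00000027663 rests on 1 library, replicate 1 of OSS 96h at 58.5 CPM, against 12.3 to 21.4 CPM in the other 5 of replicate 1, and was 0.50 without it. Over the 18 fits with a library left out FOSB lost its call in 7, L1CAM in 9, ENSMODG00000027866 in 6 and ENSMODG00000027663 in 1.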

How the results depend on the processing

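No paired analysis was possible because the replicate number is itself the factor compared, but a replicate 3 term, which keeps all 3 numbers apart, could be added to the comparisons of OSS with static and of late with early. The replicate 1 counts were 1013 lower and 947 higher throughout, of which 275 and 50 by 2-fold or more. Without a filter on low counts the 2-fold counts were 475 and 87. Settings with fewer comparisons to pass gave more genes by construction: 1999 lower and 1725 higher with replicate 2 as the only partner, 1615 and 1675 with replicate 3, 1838 and 1777 in static culture, 2257 and 2173 under OSS, and 1782 and 1685 without Static 0h and OSS 12h. With a library left out, the counts lay between 1038 and 1318 lower and 968 and 1393 higher, and by 2-fold between 260 and 304 lower and 42 and 59 higher. No scaling, DESeq2 size factors, 1 entry per name, and 2 alternatives chosen after seeing the data, thinning to the smallest library and a length correction, moved none of these counts by over 1.5 times. None of the log2 differences of the genes named reversed under any alternative, while 27 moved by more than their spread, all of them with 1 partner or 1 regime alone.

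For replicate 3 against replicate 2 (262 genes rose, 267 fell), DESeq2 gave 480 and 515, no filter gave 413 that rose, and all 18 libraries with a 3-level factor gave 86 that rose. With a library left out the counts lay between 96 and 303 that rose and between 78 and 215 that fell. They moved by over 1.5 times without either library of Static 48h, OSS 12h, OSS 48h or OSS 96h. FGA did not pass with DESeq2, and with the 3-level factor FGA, LOC100620004 and TNFSF15 did not (adjusted p = 0.0649, 0.225 and 0.176 by edgeR). C8A lost its call in 8 and FGA in 6 of 12 fits with a library left out.

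The 4 genes of the OSS against static comparison became 196 with DESeq2, 61 without a filter, 2 with the newer quasi-likelihood form, 64 with a replicate 3 term and 11 with the 12 libraries of 48 and 96 h alone. With a library left out they lay between 0 and 632. The 0 genes of the late against early comparison became 46 with DESeq2, 3 without a filter and 0 to 1 with a library left out. The cause of these shifts was not tested. With fewer counts in replicate 1, genes near 1 CPM have the least precision.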

Other observations

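Copies of abundant genes differed from each other in replicate 1. The main ACTB entry, ENSMODG00000023940, had a log2 difference of 0.25 (SE 0.08) and was neither higher nor lower throughout, whereas 3 less abundant ACTB entries were lower throughout, at -0.54, -0.86 and -1.37. The main FTH1 entry, ENSMODG00000007582, had -0.31 (SE 0.07), and 2 less abundant FTH1 entries were lower throughout, at -1.53 and -1.66. Reads may be split between such copies, and these entries were chosen after their values were seen.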
